A study of Rattus norvegicus with 12 samples.

Results

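The genes described here are 9 components and regulators of the complement system, namely C1r, C1s, C2, C3, C6, C7, Serping1, Clu and Cd59, out of 16898 genes in the deposited expression table. They were chosen by name, with earlier results of these data known, and each matched 1 gene by its exact symbol. The table gives transcript levels in heart tissue of Sprague Dawley rats, with 3 input libraries from postnatal day 0 and 3 from an older age. Input RNA is the RNA before pull-down of m6A, a methyl mark on RNA, and the 6 pull-down samples of the series were not analysed here. The older hearts are labelled postnatal day 7, whereas the headers of the table read 10D, so they are called older hearts below. No genotype or treatment is given in the labels, which also do not say how many animals made up a sample, so a p-value reflects how much these libraries vary, and that variation may be technical.

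Complement is a cascade of plasma and membrane proteins that tags microbes and cell debris and can open pores in membranes. In the classical pathway C1q binds a target and activates the proteases C1r and C1s, which cleave C4 and C2 to form an enzyme that in turn cleaves C3, the central component. Cleavage of C5 then starts the assembly of C6, C7, C8 and C9 into the membrane attack complex. Serping1 encodes the C1 inhibitor, which inactivates C1r and C1s, while clusterin (Clu) and the membrane protein CD59 act on the assembly of the attack complex. The liver makes most plasma complement, but fibroblasts, endothelial cells and macrophages of many tissues also transcribe its genes.

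RefSeq promoter sequences (build GRCr8) were at hand for 3 of the 9 genes, the protease gene C1r, which rose with age, and C3 and C6, which were barely read. The 250 bases before each start are shown to let the promoter of a gene that rose be read beside those of the sparsely read genes, with matches to any of 4 motifs in capitals. They lie at chr4:159098763-159099012 on the plus strand (C1r), chr9:2201340-2201589 on the minus strand (C3) and chr2:55573383-55573632 on the plus strand (C6).
C1r: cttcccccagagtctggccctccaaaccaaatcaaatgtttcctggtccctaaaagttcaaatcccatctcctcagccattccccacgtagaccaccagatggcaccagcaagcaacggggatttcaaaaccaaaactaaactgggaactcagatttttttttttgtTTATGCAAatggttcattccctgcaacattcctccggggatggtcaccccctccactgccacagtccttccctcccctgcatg
C3: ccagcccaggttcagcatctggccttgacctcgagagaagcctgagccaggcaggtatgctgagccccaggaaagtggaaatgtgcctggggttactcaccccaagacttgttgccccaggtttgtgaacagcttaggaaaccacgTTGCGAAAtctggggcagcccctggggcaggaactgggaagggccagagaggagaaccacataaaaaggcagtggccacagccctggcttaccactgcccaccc
C6: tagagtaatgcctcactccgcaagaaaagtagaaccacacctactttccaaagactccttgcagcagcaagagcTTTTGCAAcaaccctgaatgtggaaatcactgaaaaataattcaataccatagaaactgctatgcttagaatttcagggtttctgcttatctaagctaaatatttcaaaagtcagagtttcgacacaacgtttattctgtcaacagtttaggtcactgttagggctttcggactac

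The motifs were searched on both strands. TTGCNNAA, the core bound by C/EBP factors, matched once in each of the 3 sequences, as TTATGCAA (the other strand) 83 to 76 bases before the start of C1r, as TTGCGAAA 104 to 97 bases before that of C3 and as TTTTGCAA (the other strand) 176 to 169 bases before that of C6. Of 33469 RefSeq promoters of the same length, 9.22% hold it. TTCNNNGAA, a STAT-type site, GAAANNGAA, part of an interferon-response site, and GGGANTTTC, part of an NF-kB site, did not match in these 3 windows and are found in 7.67%, 8.12% and 0.953% of all promoters. The C/EBP letters were thus present before the gene that rose and before both genes with few reads. The motifs were chosen after the values were seen, and promoters of C7, Serping1 and Clu were not at hand. No contrast between risen and sparsely read genes can therefore be drawn.

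The deposited values are FPKM, that is reads scaled by gene length and library total, so that levels can be set side by side per length. Whole reads were recovered from them, and library totals ran from 13489816 to 16297533 reads. A single read on a 1 kb gene adds 0.0614 to 0.0741 FPKM, depending on the library. The heart label was checked against cardiomyocyte markers, of which 7 were measured and summed to between 47103 and 61802 FPKM in every library. Day 0 replicate 3 stood apart, as it was the only library with reads of the lung markers Sftpc (23.1 FPKM), Sftpb (9.44 FPKM), Sftpa1 (4.88 FPKM) and Scgb1a1 (2.50 FPKM), which were at 0 in the other 5. The fits were therefore repeated without this library.

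Transcripts of 4 of the 9 genes rose from day 0 to the older hearts. C1r, C7, Serping1 and Clu rose 2.31- to 2.81-fold in mean FPKM. C1s and Cd59 were tested but did not pass, and C2, C3 and C6 averaged under 1 FPKM over the 6 libraries, too low for the test. Across the table limma, fitted on log2(FPKM + 1) with an adjusted p threshold of 0.05, called 3.52% of 13117 tested genes higher and 5.73% lower. Beside that share, 4 of 6 tested members were called higher, and the median log2 fold change of the 6 was 1.17 against -0.11 for all genes tested. This is a description that leaves out the 3 members too low to be tested. As the members were chosen with earlier results of these data known, it is no independent test. The 3 older libraries all lay above the 3 day 0 libraries in these 4 genes, as they did in 12.2% of all genes tested. limma voom on the recovered reads, a setting chosen after seeing the data, called the same 4 members, beside 5.57% of all genes called higher. In bulk tissue, more cells of a type and more RNA per cell cannot be told apart.

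**Figure D1:**
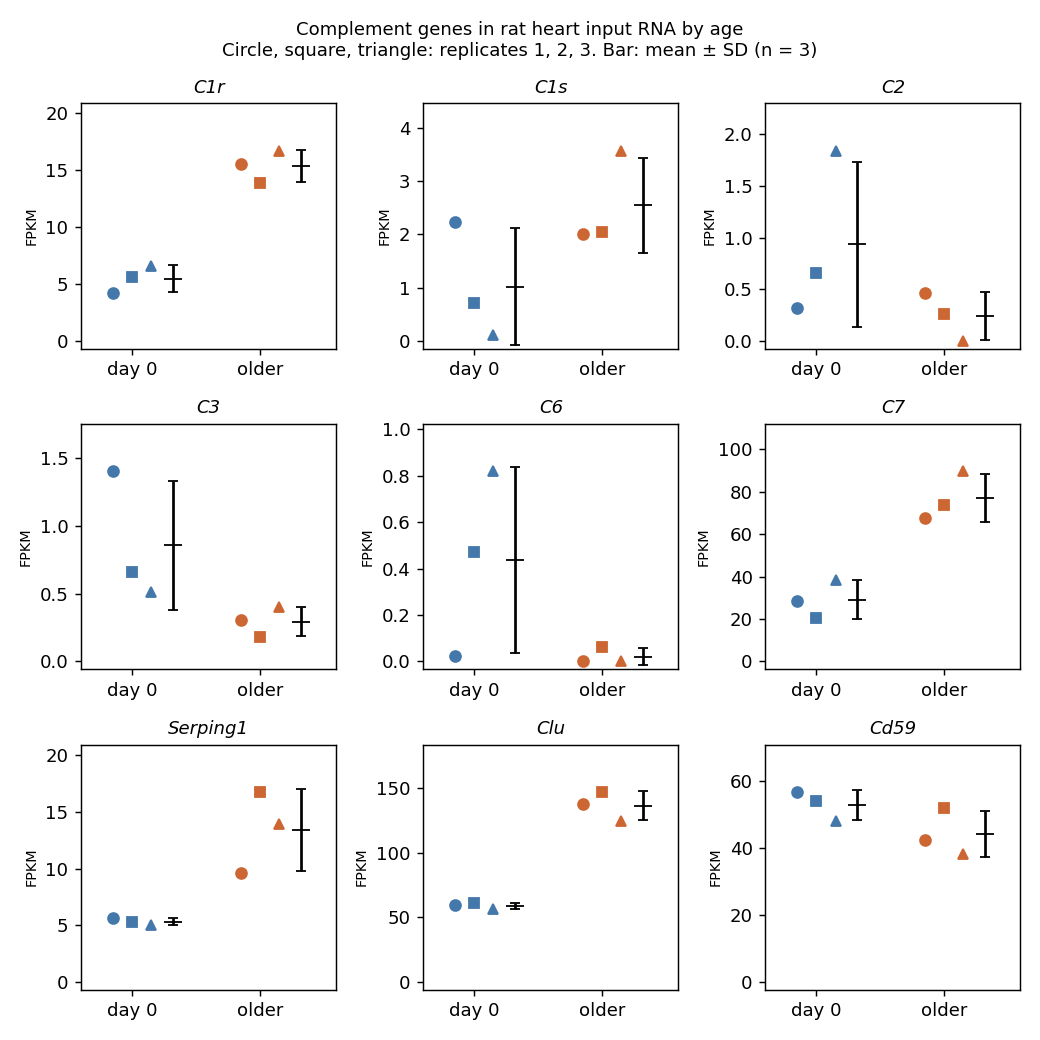
FPKM (vertical axes, 1 scale per gene) of the 9 complement genes in each input library at day 0 (blue) and in older hearts (orange); symbols are replicates and black bars are mean ± SD with n = 3. C1r, C7, Serping1 and Clu separate by age with the older libraries above, C3 separates the other way, and C1s, C2, C6 and Cd59 overlap.

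C1r and C1s encode the paired proteases of the C1 complex and are direct neighbours on rat chromosome 4 in the RefSeq table. C1r stood at 4.17, 5.62 and 6.56 FPKM in day 0 replicates 1, 2 and 3 and at 15.5, 13.8 and 16.6 FPKM in the older replicates. Each older library held at least 2.11 times the C1r level of the highest day 0 library. The rise had a log2 fold change of 1.35 (SE 0.20, 95% CI 0.88 to 1.83, limma adjusted p = 0.00972). It kept its size with any 1 library left out (1.20 to 1.48), but the limma adjusted p was 0.0542 without older replicate 1 and 0.0572 without older replicate 3.

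C1s did not follow its partner library by library. It stood at 2.23, 0.713 and 0.105 FPKM at day 0 and at 2.01, 2.05 and 3.56 FPKM in the older hearts. The day 0 values rest on 95, 28 and 5 reads, with exact Poisson 95% intervals of 1.81 to 2.73, 0.474 to 1.03 and 0.0342 to 0.246 FPKM that do not overlap. These intervals cover counting error only, since amplified copies of 1 molecule cannot be recognised without molecular identifiers. Day 0 replicate 1 had as much C1s as older replicates 1 and 2, so the ages overlapped (log2 fold change 0.93, 95% CI -0.22 to 2.07, limma adjusted p = 0.283). The size depends on the setting at such low values, at 0.56 without day 0 replicate 3, 1.81 with a pseudocount of 0.1 and 2.17 by voom, and none of these passed. The ratio of C1r to C1s within a library was 1.87, 7.88 and 62.2 at day 0, against 7.71, 6.75 and 4.67 in the older hearts. The widest spread between the 2 protease genes thus lay among the newborn libraries, and the highest ratio was in the library that also held lung transcripts.

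Serping1, whose product blocks both proteases, stood at 5.61, 5.34 and 5.07 FPKM at day 0, the tightest values of the group after Clu, with an SD of 5.13% of the mean. The older libraries held 9.61, 16.8 and 13.9 FPKM and were more spread, at 26.8% of the mean. The log2 fold change was 1.16 (SE 0.23, 95% CI 0.62 to 1.69, limma adjusted p = 0.0238). The call held without older replicate 1 (limma adjusted p = 0.0355) and was lost with any other library left out, with adjusted p of 0.0725, 0.0857 and 0.0555 without day 0 replicates 1, 2 and 3, and of 0.102 and 0.103 without older replicates 2 and 3.

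The inhibitor and its target were close in level at both ages. Serping1 over C1r was 1.34, 0.950 and 0.773 in the day 0 libraries and 0.619, 1.21 and 0.836 in the older ones. The ages overlapped in this ratio, with a log2 difference of -0.22 between them (exact two-sided permutation p = 0.6, adjusted p = 0.6 over 3 ratios, n = 3 per age). With 3 libraries against 3 the smallest p possible is 0.1.

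C2, which supplies the protease of the classical C3-cleaving enzyme, was read 12, 23 and 78 times at day 0 and 19, 11 and 0 times in the older hearts. Those reads amount to 0.315, 0.655 and 1.84 FPKM against 0.460, 0.262 and 0 FPKM. The 0 reads of older replicate 3 allow up to 3 reads, or 0.0767 FPKM. Reads summed by age gave a rate 3.99 times higher at day 0 (95% counting interval 2.65 to 6.18), and 1.95 times (1.16 to 3.29) without day 0 replicate 3, the library with lung markers. The part of lung RNA in that difference was not tested. Such intervals cover counting error only and not the spread between libraries. The ages overlapped, with older replicate 1 above day 0 replicate 1. For C1s, which limma did not call, the same calculation gave a day 0 rate of 0.393 times the older one (0.318 to 0.482). Fitted with no filter on low values, C2 had a limma adjusted p of 0.383.

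C3, the component at which all activation routes meet, was scarce in these hearts. It stood at 1.40, 0.657 and 0.509 FPKM at day 0, from 106, 46 and 43 reads, and at 0.304, 0.180 and 0.398 FPKM in the older hearts, from 25, 15 and 31 reads. Every older library was below every day 0 library, against 20.3% of all genes tested, although C3 itself was too low to be tested. Summed reads gave a rate 2.91 times higher at day 0 (95% counting interval 2.20 to 3.87) and 3.58 times (2.68 to 4.81) without day 0 replicate 3. These intervals, too, leave out the spread between libraries. With no filter on low values the limma log2 fold change was -0.49 (adjusted p = 0.334), on a scale that understates changes of such low genes. Ranked by mean FPKM over the table, C3 lay at percentile 21.6 at day 0 and 13.1 in older hearts, while C1r lay at percentiles 48.2 and 74.1.

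C6 and C7 encode successive subunits of the membrane attack complex and lie near each other on rat chromosome 2, with 3 RefSeq genes between them. Their transcripts were at opposite ends of the range. C7 stood at 28.6, 20.3 and 38.5 FPKM at day 0 and at 67.8, 73.7 and 89.6 FPKM in the older hearts, so the lowest older library was 1.76 times the highest day 0 library. Its log2 fold change was 1.41 (SE 0.23, 95% CI 0.87 to 1.94, limma adjusted p = 0.0124). C7 and C1r exchanged order with the setting, as with a pseudocount of 0.1 C7 had 1.44 and C1r 1.49, and by voom 1.42 and 1.50. Without day 0 replicate 3 it was 1.63 (limma adjusted p = 0.0111). The adjusted p was above 0.05 without day 0 replicate 1 (0.0544) and without older replicates 1, 2 and 3 (0.0515, 0.0624 and 0.0603), with log2 fold changes of 1.30 to 1.50 in these fits.

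C6 was read 1, 19 and 40 times at day 0 and 0, 3 and 0 times in the older hearts. This is 0.0228, 0.469 and 0.818 FPKM at day 0 and 0, 0.0621 and 0 FPKM later, where 0 reads allow up to 0.0630 FPKM in older replicate 1 and 0.0665 FPKM in older replicate 3. The rate over summed reads was 21.2 times higher at day 0 (95% counting interval 6.90 to 106), and 11.1 times (3.31 to 58.6) without day 0 replicate 3. Both intervals are for counting error only. The day 0 replicate with 1 read was at the level of the older libraries, so the ages overlapped and the reads come from 2 of the 3 newborn libraries. With no filter on low values the limma adjusted p was 0.354.

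**Figure D2:**
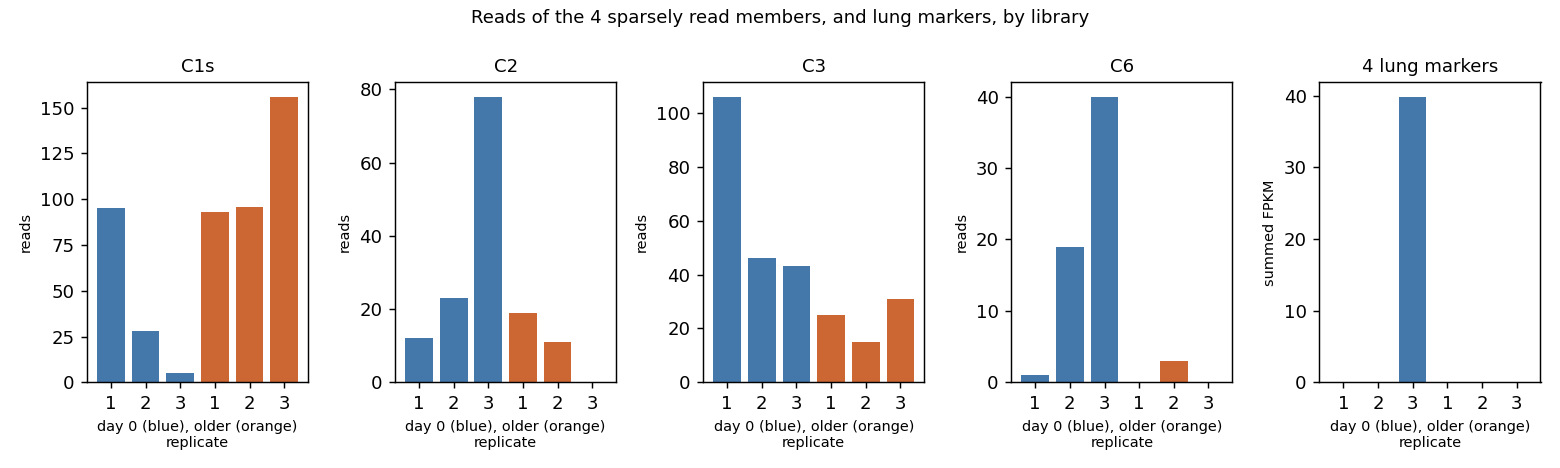
Recovered reads of C1s, C2, C3 and C6 in each library, and the summed FPKM of 4 lung markers, with day 0 libraries in blue and older libraries in orange. Day 0 replicate 3 has the most C2 reads (78) and C6 reads (40), the fewest C1s reads (5) and all of the lung marker signal (39.9 FPKM).

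Of the 2 regulators of the attack complex, Clu rose and Cd59 did not pass the test. Clu encodes a secreted chaperone that binds the forming attack complex in fluid. It stood at 59.3, 61.3 and 56.7 FPKM at day 0 and at 138, 147 and 125 FPKM in older hearts, at percentile 97.8 of the table at the older age. The log2 fold change was 1.19 (SE 0.10, 95% CI 0.95 to 1.43, limma adjusted p = 0.0015). It is the member whose call held with each of the 6 libraries left out in turn, with log2 fold changes of 1.14 to 1.26 and adjusted p up to 0.0164.

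Cd59 encodes the membrane-anchored inhibitor that stops C9 from joining the complex. Its levels of 56.7, 54.0 and 48.0 FPKM at day 0 overlapped with 42.5, 51.8 and 38.2 FPKM in older hearts. The log2 fold change of -0.26 did not pass (SE 0.14, 95% CI -0.60 to 0.07, limma adjusted p = 0.297), and was -0.14 after centring each library on the median gene. The interval leaves out a rise of the size seen in the 4 called members. Clu and Cd59 were close at day 0, though Clu was above Cd59 in each library. They held 35.9% to 41.1% and 30.3% to 36.2% of the summed FPKM of the 9 genes. In older hearts Clu held 43.5% to 49.96% and Cd59 13.3% to 16.9%.

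Both regulators were also set against C7 within each library. These ratios, like Serping1 over C1r, were chosen after the values were seen. In the same libraries C7 was called higher and Cd59 was not, so Cd59 over C7 restates those results and is no separate support. Cd59 over C7 was 1.98, 2.66 and 1.25 in the day 0 libraries and 0.627, 0.702 and 0.426 in the older ones, so that C7 exceeded Cd59 per length in each older library and in none of the newborn. The log2 difference was -1.71, with the ages fully apart (exact two-sided permutation p = 0.1, the smallest possible here, adjusted p = 0.3 over 3 ratios, n = 3 per age). Clu over C7 was 2.08, 3.02 and 1.47 at day 0 and 2.03, 1.995 and 1.39 later, and its ages overlapped (log2 difference -0.24, exact two-sided permutation p = 0.4, adjusted p = 0.6, n = 3 per age).

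**Figure D3:**
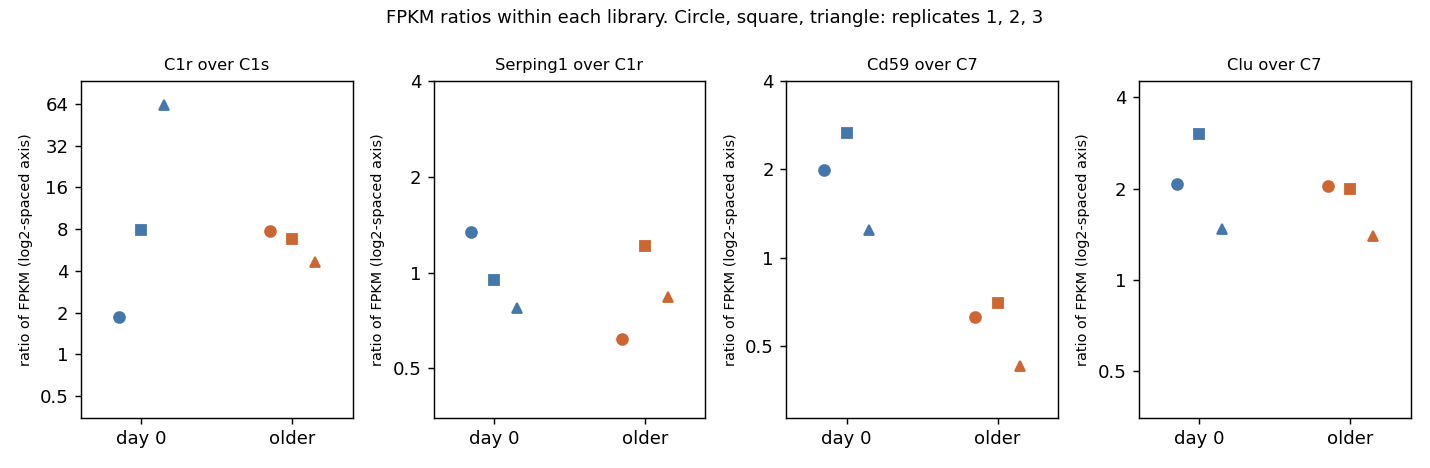
Ratios of FPKM within each library on a log2-spaced axis, with day 0 in blue, older hearts in orange and symbols for replicates. Cd59 over C7 falls below 1 in the 3 older libraries, C1r over C1s spans 1.87 to 62.2 at day 0, and Serping1 over C1r and Clu over C7 overlap between ages.

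By level, the 9 genes fell into an abundant and a scarce set. Clu, Cd59 and C7 together made up 88.0% to 91.3% of the summed FPKM of the group in every library, and C1s, C2, C3 and C6 together 0.835% to 2.51%. C1r and Serping1 lay between them. The sum over the 9 genes was 149 to 158 FPKM at day 0 and 276 to 306 FPKM in older hearts. The authors' deposited table gives a higher level in older hearts at its FDR for Clu (3.59e-23), C7 (1.37e-11), C1r (1.52e-07) and Serping1 (0.000365), with 7.62% of the genes tested here called higher by that table. In the authors' deposited table the other members had FDR of 0.168 (C6), 0.266 (C3), 0.273 (C1s), 0.428 (C2) and 0.746 (Cd59).

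The rest of the pathway was followed through 51 further complement genes, of which 33 were in the table and 16 were tested. limma called 2 of the 16 higher and 1 lower, beside 3.52% and 5.73% of all genes tested, and the median log2 fold change of the 16 was -0.24 against -0.11 for all genes. Vtn encodes vitronectin, a plasma and matrix protein that also binds the forming attack complex. It rose 6.29-fold, from 5.54 ± 2.34 to 34.9 ± 5.03 FPKM (mean ± SD over 3 libraries, as for each pair of means below), at a log2 fold change of 2.51 (SE 0.28, adjusted p = 0.00349 by limma), and its call held with each library left out in turn (adjusted p up to 0.0326).

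Cd93, an endothelial receptor once described as a C1q receptor, rose from 20.3 ± 1.70 to 30.2 ± 1.75 FPKM, at a log2 fold change of 0.55 (adjusted p = 0.0407 by limma). That call held without day 0 replicate 3 (limma adjusted p = 0.0370) but was lost with any of the other 5 libraries left out, at adjusted p of 0.0923 and 0.104 without day 0 replicates 1 and 2 and of 0.119, 0.121 and 0.0988 without older replicates 1, 2 and 3. C1qbp, named for binding C1q but mainly a mitochondrial matrix protein, fell from 185 ± 11.4 to 91.4 ± 2.92 FPKM, at a log2 fold change of -1.01 (SE 0.09, adjusted p = 0.0016 by limma). Its call held with each library left out in turn.

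Recognition molecules did not pass the test. C1qa stood at 2.38 ± 0.353 and 3.30 ± 3.30 FPKM, C1qb at 4.96 ± 1.43 and 3.66 ± 2.76, and C1qc at 10.9 ± 5.71 and 8.91 ± 3.56, with the newborn mean first (adjusted p of 0.928, 0.522 and 0.844 by limma). The 3 genes encode the chains of C1q, the part of the complex that C1r and C1s attach to, and their values varied within each age. Whether the change of C1r differs from theirs was not tested. The collectin genes Colec11 and Colec12 were higher in every older library than in any at day 0, as were 12.2% of all genes tested. Their limma adjusted p were 0.146 and 0.0729. For Colec12 the adjusted p was 0.0147 without day 0 replicate 3.

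Masp1, the lectin-pathway protease, was at 24.3 ± 2.71 and 23.7 ± 1.47 FPKM (adjusted p = 0.916 by limma). Cfp encodes properdin, which stabilises the alternative-pathway enzyme, and was at 12.1 ± 5.22 and 4.86 ± 1.48 FPKM, a log2 fold change of -1.12 that did not pass (adjusted p = 0.0863 by limma). Cfp was lower in every older library than in any at day 0, as were 20.3% of all genes tested. Its highest value, 17.7 FPKM, was in day 0 replicate 3, and without that library the log2 fold change was -0.82 (adjusted p = 0.170 by limma). The membrane regulators Cr1l, Cd55 and Cd46 were not called either, with limma adjusted p of 0.402, 0.516 and 0.561.

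Several links of the cascade were nearly unread. C4a and C4b, near-identical copies whose reads may be divided between them by the counting, stood at no more than 0.377 and 0.865 FPKM in any library, and C5 at no more than 0.160 FPKM. C8g, a chain of the terminal component C8, had 1.75 ± 0.965 FPKM at day 0 and 0.976 ± 0.749 FPKM later (adjusted p = 0.561 by limma, and 0.774 without day 0 replicate 3). Of the 33 further genes 10 had their highest value in day 0 replicate 3, and for Fcna, Cfd, C4a and Itgam that value was at least 2 times the next. The share of all genes with their highest value in that library was not counted, so the 10 are not read as an excess. Cfd, which encodes complement factor D, stood at 6.43 FPKM there and at most at 1.77 FPKM elsewhere. The log2 fold change of Cfd was -0.68 with that library and 0.14 without it (adjusted p of 0.641 and 0.900 by limma). For Fcna, which encodes a ficolin, it was -0.40 and 0.11 (adjusted p of 0.726 and 0.921 by limma), so both genes changed sign without being called. The part of lung RNA in these values was not tested.

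**Figure D4:**
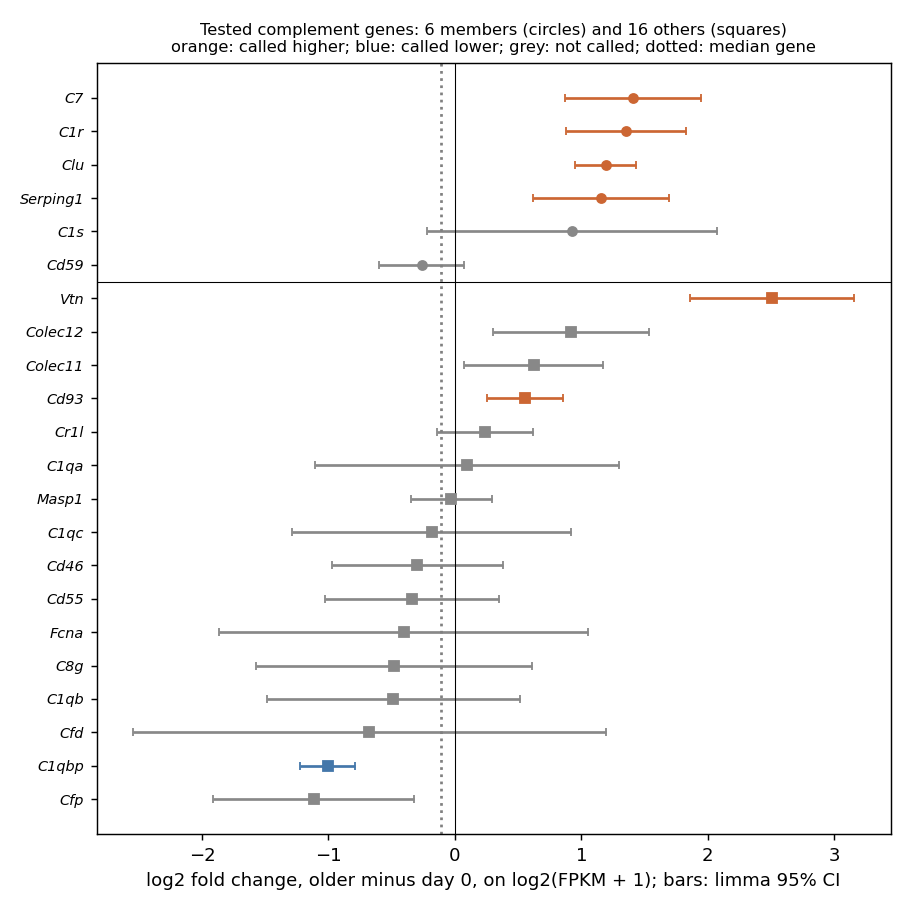
Log2 fold change (older minus day 0, on log2(FPKM + 1), horizontal axis) with its 95% confidence interval from limma for 6 tested members (circles) and 16 tested further complement genes (squares). The called members lie at 1.16 to 1.41 and Vtn at 2.51, while most recognition and protease genes have intervals that include 0.

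Markers of the cell types that could supply these transcripts moved as follows. The 7 measured cardiomyocyte markers summed to 51858 to 61802 FPKM at day 0 and 47103 to 55126 FPKM in older hearts. Among them limma called 1 higher and 0 lower, beside 3.52% and 5.73% of all genes tested. The called marker was Myh6 (means of 4499 and 7572 FPKM, adjusted p = 0.0118 by limma). Of 12 fibroblast markers limma called 8 higher and none lower, beside 3.52% and 5.73% of all genes tested. Their summed level went from 841 to 1322 FPKM at day 0 to 2126 to 2290 FPKM in older hearts. Col3a1 (means of 338 and 903 FPKM) and Col1a1 (276 and 483 FPKM) were its largest parts. Tcf21 (13.2 and 9.27 FPKM) and Thy1 (3.59 and 3.19 FPKM) had lower means in older hearts and were not called. Col1a2 (77.6 and 113 FPKM) and Postn (189 and 247 FPKM) had higher means and were not called either. The highest newborn sum was in day 0 replicate 3. Without that library the newborn sums were 913 and 841 FPKM, and 9 markers were called higher. Dcn rose from 67.1 ± 13.6 to 208 ± 5.80 FPKM and Pdgfra from 15.8 ± 2.93 to 38.6 ± 5.09 FPKM (adjusted p of 0.00154 and 0.00761 by limma). C1r, C7, Serping1 and Clu rose as did the called markers of this list, and the part of fibroblasts in their rise was not tested. The sum of 7 endothelial markers went from 210 to 239 FPKM at day 0 to 304 to 330 FPKM in older hearts. Among these, 2 were called higher and 0 lower, beside 3.52% and 5.73% of all genes tested. Without day 0 replicate 3, 1 was called higher. Cdh5 rose (means of 71.3 and 126 FPKM), while Emcn (29.2 and 29.6 FPKM) and Tek (24.9 and 27.9 FPKM) were not called.

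For macrophages, which make C1q, 7 of 12 markers were tested and none was called, and the sums were 39.5 to 82.1 FPKM at day 0, with the highest value in day 0 replicate 3, and 46.0 to 52.1 FPKM later. Without that library the newborn sums were 39.5 and 48.7 FPKM, and again none of the 7 was called. The epicardial and mesothelial sums overlapped as well (21.1 to 24.0 and 15.3 to 23.2 FPKM, none of 5 tested called). Of the hepatocyte markers, Alb, Apoa1 and Apoc3 were under 1.7 FPKM in every library and at 0 in most, while Ttr rose from 2.98 ± 0.663 to 9.80 ± 1.59 FPKM (adjusted p = 0.0132 by limma). Of 8 pericyte and smooth muscle markers 1 was called higher and 1 lower, beside 3.52% and 5.73% of all genes tested. Rgs5 rose from 32.8 ± 13.8 to 113 ± 10.5 FPKM and Acta2 fell from 129 ± 27.1 to 39.6 ± 7.52 FPKM (adjusted p of 0.0132 and 0.00385 by limma). Neutrophil markers (2 tested) and erythroid markers (3 tested) had none called, with sums of 4.02 to 10.4 and 1.61 to 3.59 FPKM for the former and of 501 to 810 and 567 to 1187 FPKM for the latter.

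For each tested member the most similar gene was sought among 8047 other genes averaging 5 FPKM or more, by the root mean square difference of centred log2(FPKM + 1) values over the 6 libraries. The nearest to Clu was Sparcl1, a matricellular protein gene, at 0.0736, with 76.5, 66.3 and 67.5 FPKM at day 0 and 161, 170 and 148 FPKM later. C1r was nearest to Stc2 (0.0743), C7 to Depp1 (0.125), Serping1 to Fndc5 (0.112), Cd59 to Zkscan1 (0.0454) and C1s to Plin5 (0.150). This scale understates changes of low genes such as C1s. From day 0 replicate 1 to replicate 3, C1s went from 2.23 to 0.105 FPKM and Plin5 only from 19.4 to 5.61 FPKM. Depp1 shared the high value of C7 in day 0 replicate 3, at 66.9 FPKM, where day 0 replicates 1 and 2 had 42.2 and 37.0 FPKM. With 6 libraries in 2 age groups such likeness describes these libraries only.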

How the data were processed

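Input RNA of rat heart was sequenced in 3 libraries per age. Per the labels' protocols, ribosomal RNA was removed and cDNA made by the SMART method. HISAT2, HOMER 4.10 and the build rn5 appear in the submitters' processing notes without a role. Counter, annotation and strand setting were not given in the sources used here, so reads of overlapping genes on opposite strands cannot be told apart. The FPKM were computed and deposited by the authors, per gene and library. The deposited log2 fold change, p-value and FDR come from a test that is not given in the sources used here.

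Whole reads were recovered for 100% of 16898 genes (relative tolerance 2e-13), with whole library totals and gene lengths. FPKM were tested as log2(FPKM + 1) with limma 3.58.1 (R 4.3.3; lmFit, eBayes with trend, Benjamini-Hochberg) over the 13117 genes averaging 1 FPKM or more; 3781 were left out. The fit and the recovery were tested on simulated data. For the fit these data had the same dispersion in every gene and no library set apart. They therefore do not cover a library such as day 0 replicate 3. OD columns were taken as day 0 and 10D columns as the other labelled age, with replicate numbers from the headers. The members and lists were chosen with earlier results of these data known, and the motifs and the 3 ratios after the values were seen. Named genes are the members, called and role-representative genes of the further list, and up to 3 markers per cell type list. As exceptions, all 4 lung markers, 4 hepatocyte markers and further fibroblast markers are named. Same-numbered libraries did not deviate together (correlations of -0.04, -0.00332 and -0.05). The result of 1 gene of the further list is not reported here, and the gene was left out of that list.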

Additional observations from a re-analysis of the deposited data

How the results depend on the processing

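Clu, C1r, C7 and Serping1 were the members called with a pseudocount of 0.1, no filter, a mean of at least 5 FPKM, centring on the median gene, quantile normalization, no mean-variance trend and limma voom on the recovered reads, the last chosen after seeing the data. The number of members called was 1 to 3 with 1 library left out, with Clu as the member called each time; leaving out day 0 replicate 1 left 2, as did leaving out older replicate 1 or 2, and leaving out older replicate 3 left 1. None of the 6 tested members and none of the 3 called further genes changed sign under the settings in which it was tested, which for C1s leaves out the mean of at least 5 FPKM. C2, C3 and C6 were fitted with no filter only. The replicate number as a replicate block left 3 members and 2 of the further genes called, as Serping1 (limma adjusted p = 0.0653) and Cd93 (0.110) were lost, but the numbers did not pair the libraries. Of the further genes 2 to 4 were called over all settings, with Colec12 added by voom (adjusted p = 0.0157) and without day 0 replicate 3, and Cd93 lost without the trend (0.0860). Over all genes limma called 1214, and 1130 without day 0 replicate 3 but 363 to 521 with any other library left out. It called 501 with the block, 669 without the trend and 1837 with voom. The cause of these differences was not tested. The edgeR and DESeq2 fits were not run because the deposited values are FPKM. Depth limits C2, C3 and C6, which had 143, 266 and 63 reads over the 6 libraries.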
